A study of Homo sapiens with 6 samples.

Results

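The BCL2 family of apoptosis regulators was examined in enzalutamide resistant and parental C4-2B cells. The family is represented by 10 genes chosen by name for their known roles in the pathway, with earlier results of these data known, of 58024 genes in the RNA-Seq table, and each symbol matched a single row. The 3 pro-survival members were BCL2, BCL2L1 (the gene of BCL-XL) and MCL1. The 2 pore-forming effectors were BAX and BAK1, and the 5 BH3-only members were BID, BIK, BCL2L11 (BIM), BBC3 (PUMA) and PMAIP1 (NOXA).

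The BCL2 family controls the mitochondrial route of apoptosis. BAX and BAK1 open the outer membrane of the mitochondrion, and cytochrome c then leaves it and starts the caspase cascade. Pro-survival proteins hold the effectors in check, while BH3-only proteins carry stress signals and either occupy the pro-survival proteins or activate the effectors directly. Prostate cancer cells rely on androgens for survival, and enzalutamide is a second generation antiandrogen.

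C4-2B is a castration-resistant human prostate cancer line, obtained from a bone metastasis of the LNCaP derivative C4-2. The comparison held 3 libraries of parental cells and 3 libraries of enzalutamide resistant cells, numbered 0, 1 and 2 in both groups. Resistant cells had been passaged in rising enzalutamide, from 1 to 20 µM, over 6 months or longer and stayed in 5 µM afterwards, while parental cells were passaged alongside in dimethyl sulfoxide, at 1% by the sample labels and at a lower concentration by the paper's methods. The text on RNA extraction names 10 µM enzalutamide for resistant and sensitive cells together, so it is not clear whether the parental cells were exposed. Both groups were grown in RPMI medium with 10% fetal bovine serum. The resistant cells are the survivors of selection in 1 line, and no label says that the 3 libraries of a group came from separate cultures, so the p values below measure the spread between these libraries, which may be technical.

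Expression was measured by single-end RNA-Seq of 50 bp reads and is given as FPKM, a read density that is scaled for transcript length and library depth, so that levels can be set side by side between genes. The values summed to between 792975 and 870110 FPKM per library. The table gives no read counts, and the depth was estimated at 13500000 to 20400000 reads per library from the commonest length-scaled value of single-transcript genes, taken as 1 read, with fragments assumed to be 200 bases long. At that depth 1 read on a transcript of 2000 bases is worth 0.0272 to 0.0412 FPKM. The 9 prostate epithelial markers followed here were above 0 in each library, and 1 was called higher and 7 lower. These are 11.1% and 77.8% of the markers, beside 22.1% and 22.3% of all genes tested. KLK3, the gene of prostate-specific antigen, fell by 5.85 on the log2 scale, and KLK2 fell by 2.49, while KRT8, a keratin of luminal cells, was 0.30 higher with a limma adjusted p of 0.0466, a call lost without any 1 library except parental library 0. Summed over the 9 markers, the level was 4167 to 4939 FPKM in parental and 1037 to 1109 FPKM in resistant libraries.

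All 10 family members had a mean of at least 0.1 FPKM and entered the test. BCL2 and MCL1 were higher in resistant cells, and BCL2L1, BAK1, BID, BIK and BCL2L11 were lower (limma on log2 of FPKM with 0.1 added, two-sided, Benjamini-Hochberg adjusted p below 0.05 over 24468 genes). BAX, BBC3 and PMAIP1 did not pass the threshold. The cells differed in many genes, with 22.1% of all genes tested called higher and 22.3% called lower. Against this background, 2 of 10 members called higher is a share close to that of all genes, and 5 of 10 called lower is a larger share. With a filter at a mean of 1 FPKM, which all members pass, 4214 of 16382 genes were called higher and 4807 lower. Both are larger shares of the genes tested, so the members stand out less beside genes of such levels. The median log2 fold change over the members was −0.50, beside −0.05 over all genes tested. The same 7 members were those whose parental and resistant libraries did not overlap, 2 above and 5 below, and among all genes tested 26.6% lay above and 28.1% below without overlap. With 3 libraries against 3, an exact two-sided permutation test of a single gene cannot go below p = 0.1, and all 7 of these members stood at that value. In bulk RNA, fewer cells with a transcript and less of it per cell cannot be told apart.

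**Figure D1:**
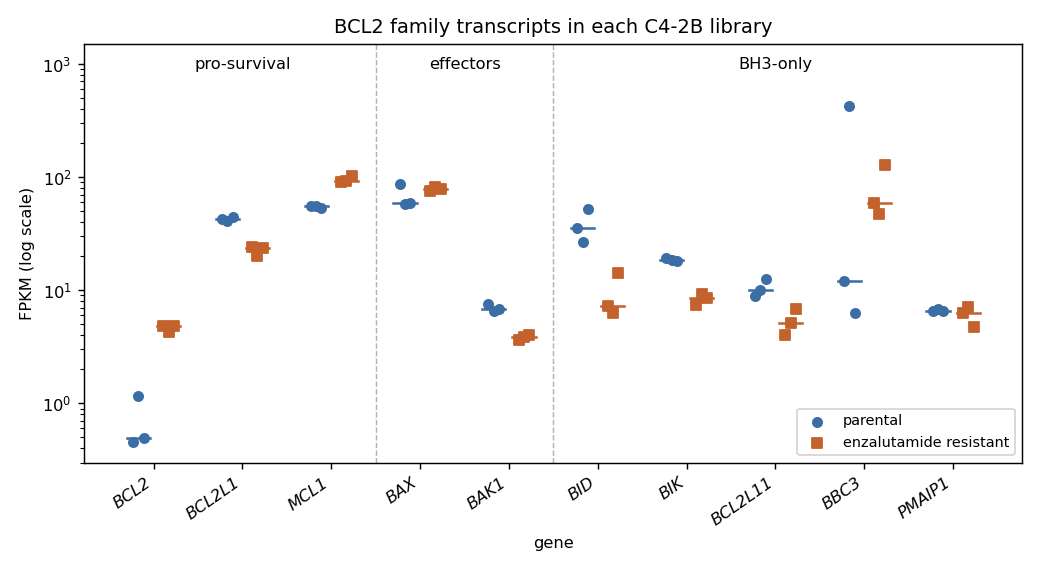
FPKM of the 10 BCL2 family members (log axis) in each of the 3 parental and 3 enzalutamide resistant C4-2B libraries, 1 point per library with a line at the median of the group. BCL2 and MCL1 lie higher in all resistant libraries, BCL2L1, BAK1, BID, BIK and BCL2L11 lie lower, and BBC3 spans 6.28 to 422 FPKM within the parental cells.

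Promoter sequence is shown for the members called lower whose upstream bases lie outside annotated exons, because these genes moved in the same direction, and for PMAIP1, which was not called, beside them. RefSeq (GRCh38.p14) gave a window of 250 bases before and 50 bases after the transcription start for 8 of the 10 members. Each stretch below is 200 bases of such a window that end where its first annotated exon begins, read 5′ to 3′ on the strand of the gene, with the GC box GGGCGG and its reverse complement in capitals. The stretches lie at chr20:31723990-31724189 (minus strand) for BCL2L1, chr6:33580294-33580493 (minus) for BAK1, chr22:17774017-17774216 (minus) for BID, chr2:111120714-111120913 (plus) for BCL2L11 and chr18:59899796-59899995 (plus) for PMAIP1. Those of BCL2L1, BAK1 and PMAIP1 lie just before the GENCODE v44 locus given below, while those of BID and BCL2L11 lie before a start within the locus, between exons of longer transcripts.
BCL2L1: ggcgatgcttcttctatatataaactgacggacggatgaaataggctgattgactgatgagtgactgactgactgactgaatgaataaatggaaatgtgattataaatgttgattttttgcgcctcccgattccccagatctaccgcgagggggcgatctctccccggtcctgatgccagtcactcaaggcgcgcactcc
BAK1: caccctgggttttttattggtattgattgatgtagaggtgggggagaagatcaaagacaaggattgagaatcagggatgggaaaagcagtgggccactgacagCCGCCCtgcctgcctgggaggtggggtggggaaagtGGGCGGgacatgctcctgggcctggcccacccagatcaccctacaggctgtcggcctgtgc
BID: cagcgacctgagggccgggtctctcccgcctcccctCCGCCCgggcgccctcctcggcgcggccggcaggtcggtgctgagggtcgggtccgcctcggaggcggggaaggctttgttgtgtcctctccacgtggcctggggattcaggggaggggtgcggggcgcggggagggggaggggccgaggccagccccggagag
BCL2L11: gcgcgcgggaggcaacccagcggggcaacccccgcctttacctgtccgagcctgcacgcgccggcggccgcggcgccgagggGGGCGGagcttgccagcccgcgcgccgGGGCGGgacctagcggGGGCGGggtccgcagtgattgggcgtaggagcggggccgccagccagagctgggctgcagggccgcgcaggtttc
PMAIP1: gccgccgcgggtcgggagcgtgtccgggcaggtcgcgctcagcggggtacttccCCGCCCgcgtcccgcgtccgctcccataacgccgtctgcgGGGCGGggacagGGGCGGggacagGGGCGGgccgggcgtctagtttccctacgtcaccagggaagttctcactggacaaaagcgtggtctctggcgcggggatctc
The members called lower and shown here did not share a base composition, and BIK, also called lower, is not shown. BCL2L1 had 48.5% G and C with 11 CpG and no GC box, and BAK1 had 58.5% with 3 CpG and 2 GC boxes. BID had 77% G and C with 21 CpG and 1 GC box, and BCL2L11 had 79% with 28 CpG and 3 GC boxes. PMAIP1, which did not pass the threshold, was of the GC-rich kind as well, with 72.5%, 27 CpG and 4 GC boxes.

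Motif letters were searched on both strands in the whole windows of 300 bases and counted beside their share among 35116 RefSeq promoter windows. The GC box GGGCGG was in windows of 6 of the 8 members and in 45% of all windows. CCAAT was in BAX, BAK1, BCL2L11 and BBC3 and in 34.6% of all windows, and the E-box CACGTG was in BAX, BID and BBC3 and in 7.26%. A forkhead motif, GTAAACA, was found in BCL2L11 alone among the members and in 3.42% of windows, and TATAAA was found in BCL2L1 alone and in 11.5%. The cyclic AMP response element TGACGTCA was in none of the 8 and in 1.85% of windows. The 8 members had 13 windows, and a member with several windows counted once if any of them held the letters. The shares over all promoters count single windows. The counts of members are thus raised beside these shares and are not directly comparable with them. A match is a run of letters only.

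Among the pro-survival genes, BCL2 rose from the lowest level of the family. BCL2 (18:63123346-63320128 in GRCh38, minus strand), the founding member, whose protein guards the mitochondrial membrane, was at 0.455, 1.16 and 0.494 FPKM in parental libraries and at 4.81, 4.30 and 4.81 FPKM in resistant libraries. The lowest resistant library was well above the highest parental library, number 1, which itself stood apart from the other parental libraries. The log2 fold change of BCL2 was 2.66 (SE 0.36, 95% interval 1.79 to 3.54, adjusted p = 0.00155, limma with Benjamini-Hochberg adjustment), or 6.34-fold on the scale with 0.1 FPKM added. At so low a parental level the amount added matters, and with 1 FPKM the log2 fold change was 1.75.

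MCL1 and BCL2L1, the abundant pro-survival genes, moved in opposite directions. MCL1 (1:150560895-150579738, minus strand), which encodes a short-lived survival protein, was at 55.5, 55.5 and 53.1 FPKM in parental and 89.6, 92.9 and 102 FPKM in resistant libraries. BCL2L1 (20:31664452-31723989, minus strand) was at 42.2, 41.2 and 44.5 FPKM in parental and 24.3, 19.9 and 23.8 FPKM in resistant libraries. For both genes the groups were far apart compared with the spread within them. MCL1 rose 1.73-fold (log2 0.79, SE 0.08, 95% interval 0.61 to 0.97, limma adjusted p = 0.000356), and BCL2L1 was 1.88-fold lower (log2 −0.91, SE 0.10, 95% interval −1.16 to −0.66, limma adjusted p = 0.00071). Both genes make long and short splice forms with opposite roles in survival, which a table per gene does not separate.

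BAX and BAK1, the effectors, differed in their behavior. BAK1 (6:33572547-33580293, minus strand), which sits in the mitochondrial outer membrane, was at 7.61, 6.51 and 6.82 FPKM in parental and 3.62, 3.87 and 4.02 FPKM in resistant libraries. It was 1.80-fold lower without overlap (log2 −0.85, SE 0.14, 95% interval −1.18 to −0.51, limma adjusted p = 0.00344). BAX (19:48954815-48961798, plus strand), which moves to the mitochondrion from the cytosol, was at 86.0, 58.4 and 58.5 FPKM in parental and 75.3, 81.7 and 78.8 FPKM in resistant libraries. Parental library 0 was above all resistant libraries and the other parental libraries were below them. The BAX log2 fold change of 0.24 (SE 0.16, 95% interval −0.15 to 0.63) did not pass the threshold, with a limma adjusted p of 0.271, and without parental library 0 it was 0.43 with an adjusted p of 0.0114. The ratio of BAX to BAK1 was 9.62 ± 1.47 in parental and 20.5 ± 0.787 in resistant libraries (SD, n = 3 each).

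Of the BH3-only members, 3 of 5 were lower in resistant cells and none was called higher, beside 22.3% and 22.1% of all genes tested. The BH3-only genes BMF, HRK and BAD, outside the members and described below, were called higher. BID had the largest decrease of the 10 members. BID (22:17734138-17774770, minus strand), which links caspase 8 of the death receptors to the mitochondrion, was at 35.7, 26.5 and 52.1 FPKM in parental and 7.22, 6.34 and 14.2 FPKM in resistant libraries. Libraries varied widely within each group, and the lowest parental library was still above the highest resistant one. The BID log2 fold change was −2.07 (SE 0.37, 95% interval −2.96 to −1.18, limma adjusted p = 0.00477), which is a 4.19-fold lower level.

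BIK and BCL2L11 were lower as well. BIK (22:43110750-43129712, plus strand), a BH3-only protein found mainly at the endoplasmic reticulum, was at 19.1, 18.4 and 18.0 FPKM in parental and 7.39, 9.17 and 8.47 FPKM in resistant libraries. With its tight replicates, BIK was 2.21-fold lower (log2 −1.14, SE 0.12, 95% interval −1.42 to −0.86, limma adjusted p = 0.000461). BCL2L11 (2:111119378-111168444, plus strand), whose product BIM binds all pro-survival members, was at 8.81, 10.0 and 12.6 FPKM in parental and 4.05, 5.15 and 6.78 FPKM in resistant libraries. The gap between the groups was narrow, and BCL2L11 was 1.97-fold lower (log2 −0.98, SE 0.23, 95% interval −1.54 to −0.42, limma adjusted p = 0.0150). BCL2L11 shares 727 exonic bases (GENCODE v44) with MIR4435-2HG, a non-coding gene on the opposite strand that was at 6.79 to 7.43 FPKM in parental and 0.266 to 0.672 FPKM in resistant libraries. By the paper's methods the libraries were made with a stranded total RNA kit. Whether the authors' counting used strand is not given in the sources used here, and the part of the shared bases in the BCL2L11 difference was not tested.

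BBC3 and PMAIP1, both stress-induced genes, did not pass the threshold. BBC3 (19:47220822-47232766, minus strand), whose product PUMA is a potent inducer of apoptosis, was at 12.1, 422 and 6.28 FPKM in parental and 59.2, 47.5 and 128 FPKM in resistant libraries. Parental library 1 was far above all others, and the other parental libraries were below all resistant libraries. Its log2 fold change of 1.15 (SE 1.53, 95% interval −2.54 to 4.85, limma adjusted p = 0.569) rested on single libraries: it was 3.01 with an adjusted p of 0.00742 without parental library 1, 0.46 without parental library 0 and −0.01 without parental library 2. The same parental library was high in FOXO1 (2.01, 16.4 and 1.75 FPKM in parental libraries), a gene of a list described below that was picked out after its values were seen. It held 141 genes with a group mean of at least 1 FPKM at 5 or more times both other libraries of its group. That count lay within the range of 91 to 185 over the 6 libraries. In the other direction parental library 1 had the highest count, 440 genes 5 or more times lower than in both others of its group. The other libraries had 270 to 380 such genes. Parental library 1 also had the fewest genes above 0, at 21956, beside 23121 to 27153 in the others. PMAIP1 (18:59899996-59904305, plus strand), whose product NOXA binds MCL1, was at 6.6, 6.83 and 6.57 FPKM in parental and 6.35, 7.04 and 4.70 FPKM in resistant libraries. Its groups overlapped and the log2 fold change was −0.16 (SE 0.18, 95% interval −0.59 to 0.27, limma adjusted p = 0.489). A decrease of up to 0.59 lies within the interval, and the value was 0.00 without resistant library 2.

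**Figure D2:**
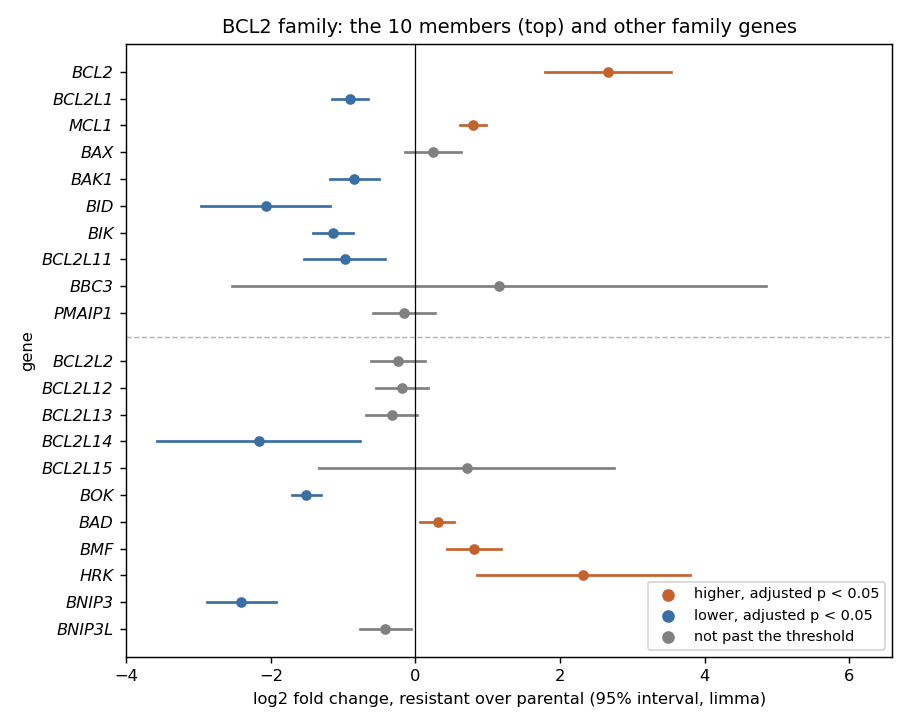
Log2 fold change of resistant over parental cells with its 95% interval from limma, for the 10 members above the dashed line and 11 other BCL2 family genes below it. The intervals of BAX, BBC3 and PMAIP1 include 0, and that of BBC3 runs from −2.54 to 4.85.

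The order of the family by median FPKM differed between the groups. In parental cells BAX (58.5), MCL1 (55.5) and BCL2L1 (42.2) led, followed by BID (35.7), BIK (18.4), BBC3 (12.1), BCL2L11 (10.0), BAK1 (6.82), PMAIP1 (6.6) and BCL2 (0.494). Neighbors whose libraries overlapped in that order were BCL2L1 and BID, BIK and BBC3, BBC3 and BCL2L11, and BAK1 and PMAIP1. In resistant cells the median FPKM of MCL1 (92.9) was the highest, ahead of BAX (78.8), BBC3 (59.2), BCL2L1 (23.8), BIK (8.47), BID (7.22), PMAIP1 (6.35), BCL2L11 (5.15), BCL2 (4.81) and BAK1 (3.87). Here BAX overlapped with BBC3, and overlaps also ran along the chain from BIK through BID, PMAIP1 and BCL2L11 to BCL2. By median, MCL1 and BAX thus changed places at the top, with no overlap between them in either group. Their parental gap was narrow, with BAX at 58.4 FPKM or more and MCL1 at 55.5 FPKM or less. BAK1 took the lowest place from BCL2. Only neighbors were compared for overlap. BBC3 reached 422 FPKM in parental and 128 FPKM in resistant libraries, above all values of MCL1 and BAX in the same group.

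Summed levels were computed per library as a description, with no test. The 3 pro-survival members summed to 98.1, 97.8 and 98.1 FPKM in parental and to 119, 117 and 131 FPKM in resistant libraries. MCL1 made up 55.8% ± 1.44 of that sum in parental and 77.7% ± 1.99 in resistant cells (SD, n = 3 each), while BCL2L1 went from 43.5% ± 1.68 to 18.5% ± 1.78. BCL2 stayed the smallest part, at 0.719% ± 0.409 and 3.80% ± 0.223. The sum was therefore higher although BCL2L1 was lower, and most of the gain in FPKM was in MCL1. The ratio of MCL1 to BCL2L1 was 1.29 ± 0.0810 in parental and 4.22 ± 0.499 in resistant cells.

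The 7 pro-death members summed to 176, 548 and 161 FPKM in parental and 163, 161 and 245 FPKM in resistant libraries, and these values follow BBC3. Without parental library 1, where BBC3 was highest, the mean of this sum was 168 FPKM in parental cells, below the 190 FPKM of resistant cells, while over all libraries the parental mean of 295 FPKM was the higher one. BBC3 was also left out, a choice made after its values were seen. Without BBC3 the sum was 164, 127 and 155 FPKM in parental and 104, 113 and 117 FPKM in resistant libraries, with no overlap. The direction thus depends on whether this gene or this library is left out. BAX made up 45.5% ± 7.35 of the sum without BBC3 in parental and 70.7% ± 2.84 in resistant cells, and BID made up 25.5% ± 7.14 and 8.22% ± 3.44. BID, BIK and BCL2L11 together fell from 67.0 ± 14.2 to 22.9 ± 5.73 FPKM, a set named for having passed the test.

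The ratio of pro-survival to pro-death FPKM depended on the same gene. It was 0.558, 0.178 and 0.610 in parental and 0.727, 0.728 and 0.535 in resistant libraries with all 10 members, and the groups overlapped. They still overlapped with parental library 1 left out and all 10 members kept. Without BBC3 the ratio was 0.599, 0.773 and 0.635 in parental and 1.14, 1.03 and 1.12 in resistant libraries. This version was chosen after the values of BBC3 were seen. It leaves out a pro-death gene that, outside parental library 1, was higher in resistant libraries. The ratio of BCL2 to BAX, which is often given as an index of apoptotic readiness, was 0.00529, 0.0199 and 0.00844 in parental and 0.0639, 0.0527 and 0.0610 in resistant libraries. These ratios are of transcripts, and protein was not analysed here.

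**Figure D3:**
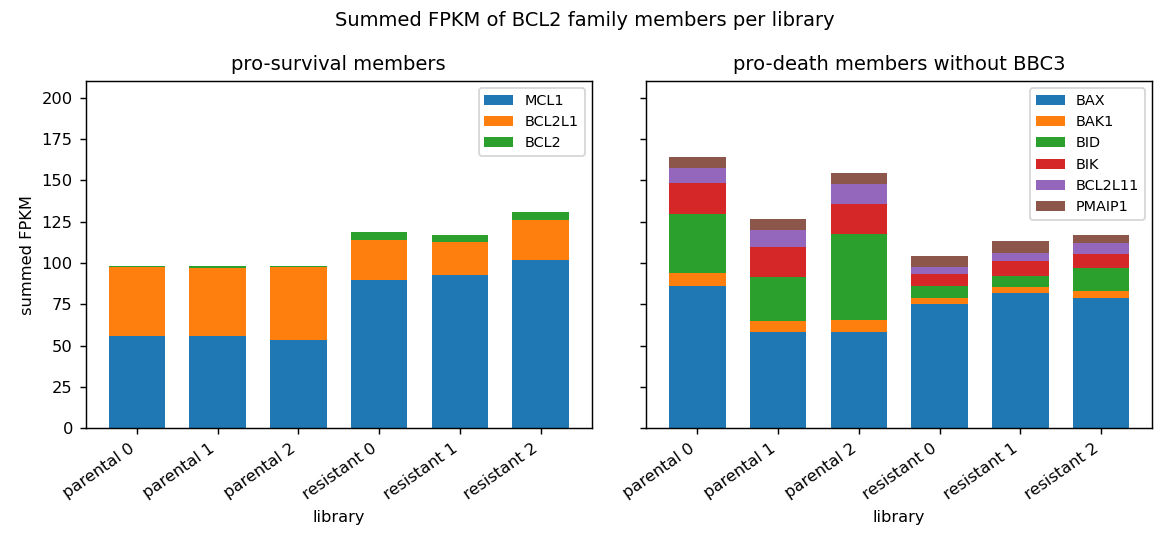
Summed FPKM per library, stacked by gene, of the 3 pro-survival members (left) and of 6 pro-death members without BBC3, which alone stood at 6.28 to 422 FPKM (right), in 3 parental and 3 resistant libraries. The pro-survival bars stand at 97.8 to 98.1 FPKM in parental and 117 to 131 FPKM in resistant cells, with MCL1 the growing part, and the pro-death bars at 127 to 164 and 104 to 117 FPKM. BBC3 was left out after its values were seen, and with it the pro-death sums of the groups overlapped.

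Of 13 further genes of the extended BCL2 family, 11 were tested, 3 were called higher and 3 lower, with a median log2 fold change of −0.24. That is 27.3% of those tested in each direction, near the 22.1% and 22.3% of all genes tested. BOK, an effector relative of BAX, was at 30.6, 31.2 and 29.3 FPKM in parental and 10.6, 10.9 and 10.2 FPKM in resistant libraries and was 2.85-fold lower (log2 −1.51, SE 0.08, limma adjusted p = 4.84e-05). BNIP3, a mitochondrial protein known for its role in hypoxia and mitophagy, was at 125, 133 and 125 FPKM in parental and 22.7, 18.6 and 32.6 FPKM in resistant libraries (log2 −2.41, SE 0.20, limma adjusted p = 2.00e-04). BCL2L14 was at 3.07, 1.6 and 3.79 FPKM in parental and 0.955, 0.185 and 0.667 FPKM in resistant libraries (log2 −2.17, SE 0.58, limma adjusted p = 0.0235). BOK was thus lower with little spread, the resistant libraries of BNIP3 varied more but stayed far below the parental ones, and BCL2L14 was lower at a low level.

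BMF, HRK and BAD, BH3-only genes outside the 10 members, were called higher. BMF, whose product binds pro-survival proteins, was at 3.44, 3.70 and 4.25 FPKM in parental and 6.56, 6.27 and 7.36 FPKM in resistant libraries (log2 0.81, SE 0.15, limma adjusted p = 0.00608). HRK was at 0.428, 0.0110 and 0.149 FPKM in parental and at 1.30, 1.10 and 0.990 FPKM in resistant libraries (log2 2.32, SE 0.61, limma adjusted p = 0.0217). Its level was low, and in parental library 1 it was below the estimated 0.0285 FPKM of 1 read on 2000 bases. BAD, a BH3-only protein controlled by survival kinases, was at 51.9, 54.1 and 52.4 FPKM in parental and 64.0, 74.0 and 59.1 FPKM in resistant libraries (log2 0.31, SE 0.10, limma adjusted p = 0.0412). All 3 lay without overlap above the parental libraries. BAD shares 404 exonic bases with GPR137 on the opposite strand, which was at 41.4 to 45.7 FPKM in parental and 35.6 to 39.7 FPKM in resistant libraries.

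The remaining family genes did not pass the threshold. BCL2L2, a pro-survival gene, had a log2 fold change of −0.24 (limma adjusted p = 0.253), BCL2L12 of −0.18 (0.368), BCL2L13 of −0.33 (0.114), BCL2L15 of 0.71 (0.524) and BNIP3L, a mitophagy receptor, of −0.42 (0.0587). BNIP3L shares 330 exonic bases with PNMA2 on the opposite strand, which was at 0.114 to 1.01 FPKM in parental and 12.4 to 18.0 FPKM in resistant libraries. BCL2L2 shares 815 with BCL2L2-PABPN1 on the same strand (0.277 to 9.97 and 2.82 to 7.9 FPKM) and 315 with PPP1R3E on the opposite one (7.43 to 9.15 and 5.22 to 9.22 FPKM). BCL2L12 shares 734 with IRF3 on the opposite strand (60.8 to 78.2 and 71.5 to 81.2 FPKM). The part of these shared bases was not tested. BCL2A1, a pro-survival gene of blood cells, was listed at 0 in all 6 libraries. BCL2L10 was at 0 in parental libraries and at most 0.328 FPKM in resistant libraries and was not tested. The counts of this list rest on single libraries: BAD was past the threshold only without resistant library 2 when 1 library was left out, HRK only without parental library 0 or 1, and the count of genes called higher was 1 without parental library 2, resistant library 0 or resistant library 1. BCL2L14 lost its call without parental library 0, parental library 2 or resistant library 2, and BCL2L13 and BNIP3L gained one without parental library 1 and without resistant library 2, respectively.

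The steps after the mitochondrion are carried by cytochrome c, the apoptosome and the caspases. Of 12 genes of this list, all tested, 5 were called higher and 2 lower, and the median log2 fold change was 0.45. The shares were 41.7% and 16.7%, beside 22.1% and 22.3% of all genes tested. APAF1, the scaffold of the apoptosome, was at 4.66, 4.84 and 5.21 FPKM in parental and 13.6, 16.5 and 15.3 FPKM in resistant libraries, a 3.04-fold increase (log2 1.6, SE 0.13, limma adjusted p = 1.70e-04). ENDOG, a mitochondrial nuclease, was at 34.9, 36.5 and 28.8 FPKM in parental and 113, 119 and 111 FPKM in resistant libraries (log2 1.78, SE 0.10, limma adjusted p = 5.64e-05). CYCS, the gene of cytochrome c, was at 206, 179 and 231 FPKM in parental and 116, 130 and 120 FPKM in resistant libraries (log2 −0.75, SE 0.11, limma adjusted p = 0.0019). DFFB, the nuclease that cuts DNA in dying cells, fell by 0.85 on the log2 scale with a limma adjusted p of 0.00166. The other 3 genes called higher, named after their values were seen, were CASP6, an executioner caspase, by 2.09 on the log2 scale, and HTRA2 (1.21) and DIABLO (0.63), which relieve the block on caspases once released.

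Inhibitor of apoptosis genes showed little common direction. Of 7 such genes 6 were tested, 1 was called higher and 1 lower, with a median log2 fold change of −0.16. In each direction that is 16.7% of those tested, beside 22.1% and 22.3% of all genes tested. BIRC2, a ubiquitin ligase of this family, was at 16.5, 13.3 and 10.7 FPKM in parental and 26.4, 24.2 and 22 FPKM in resistant libraries (log2 0.86, SE 0.17, limma adjusted p = 0.0079). BIRC3, its close relative, was at 1.48, 1.51 and 1.78 FPKM in parental and 0.385, 0.573 and 0.477 FPKM in resistant libraries (log2 −1.55, SE 0.29, limma adjusted p = 0.00547). XIAP, the direct caspase inhibitor, had a log2 fold change of 0.09 (limma adjusted p = 0.531). BIRC5, or survivin, had one of −0.33 (0.195), which became −0.51 with an adjusted p of 0.028 and the second gene called lower when parental library 1 was left out.

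The death receptor route meets the BCL2 family at BID. Of 14 genes 13 were tested, 1 was called higher and 7 lower, and the median log2 fold change was −0.53. The shares were 7.69% and 53.8% of those tested, beside 22.1% and 22.3% of all genes tested. TNFRSF10B, a receptor for the ligand TRAIL, was at 77.3, 86.8 and 82.9 FPKM in parental and 33.9, 36.8 and 39.3 FPKM in resistant libraries, a 2.25-fold lower level (log2 −1.17, SE 0.09, limma adjusted p = 1.37e-04). TNFRSF10C, a decoy receptor that binds TRAIL without signaling, was at 4.21, 3.85 and 2.80 FPKM in parental and 0.424, 0.259 and 0.269 FPKM in resistant libraries (log2 −3.16, SE 0.31, limma adjusted p = 0.00039). The list thus held both a killing and a decoy receptor among the genes that were lower. RIPK1, a kinase of the TNF receptor complex, had a log2 fold change of 0.75 (limma adjusted p = 0.0281), and FAS, another death receptor, of 0.12 (0.738). CASP8, the caspase that cuts BID and a gene named after its values were seen, was at 12.4, 14.8 and 20.4 FPKM in parental and 5.26, 9.81 and 5.53 FPKM in resistant libraries (log2 −1.23, SE 0.30, limma adjusted p = 0.0159). The count of genes called lower was 4 without parental library 0 or resistant library 2, and RIPK1 was not called without any 1 of the resistant libraries.

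**Figure D4:**
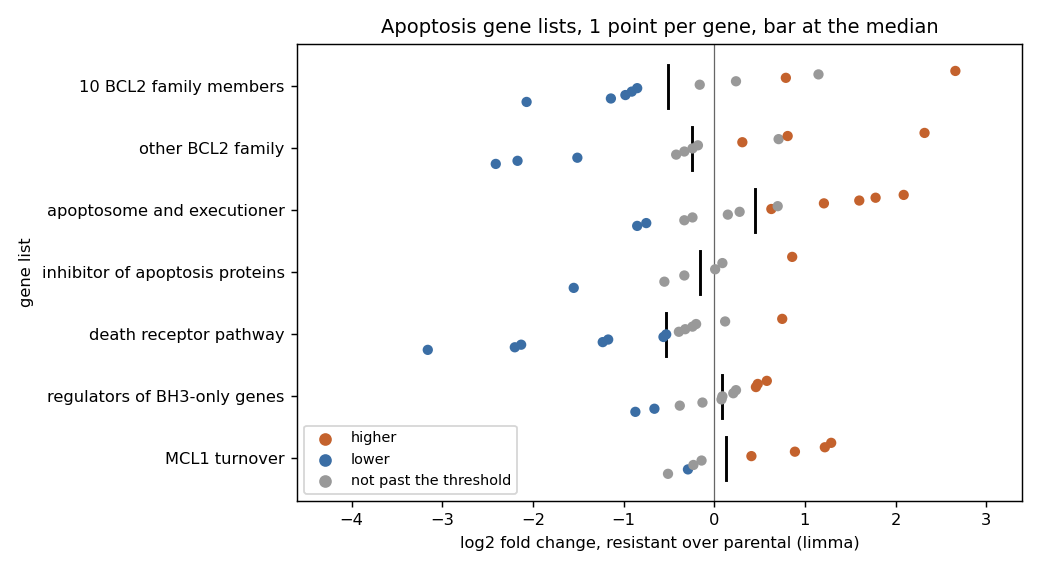
Log2 fold change of resistant over parental cells (limma) for each tested gene of 7 apoptosis lists, 1 point per gene colored by its call, with a bar at the median of the list. The medians run from −0.53 for the death receptor list to 0.45 for the apoptosome and executioner list, and that of the 10 members is −0.50.

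Regulators of BH3-only genes were called at shares near those of all genes tested. The list held 12 genes, transcription factors and the pseudokinase TRIB3, of which 11 were tested, 3 were called higher and 2 lower. These are 27.3% and 18.2% of those tested, beside 22.1% and 22.3% of all genes, and the median log2 fold change was 0.09. DDIT3, the stress factor CHOP, was at 29.2, 28.6 and 31.5 FPKM in parental and 47.0, 43.2 and 43.0 FPKM in resistant libraries (log2 0.58, SE 0.08, limma adjusted p = 0.0017). E2F1 was 0.46 higher on the log2 scale (limma adjusted p = 0.00599). FOXO3, a forkhead factor known to act on BCL2L11 and BBC3, was at 8.16, 7.86 and 10.1 FPKM in parental and 4.2, 5.53 and 4.5 FPKM in resistant libraries (log2 −0.87, SE 0.17, limma adjusted p = 0.00753). ATF3 fell by 0.66 (limma adjusted p = 0.00182).

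MCL1 protein is short-lived, and 8 genes that mark it for breakdown or protect it were followed. All were tested, 4 were called higher and 1 lower, and the median log2 fold change was 0.14. The shares were 50% and 12.5%, beside 22.1% and 22.3% of all genes tested. GSK3A, a kinase that can prime MCL1 for destruction, was at 7.86, 7.76 and 6.04 FPKM in parental and 16.9, 16.3 and 17.4 FPKM in resistant libraries (log2 1.22, SE 0.14, limma adjusted p = 0.000657). FBXW7, a ubiquitin ligase subunit, was at 11.6, 12.8 and 15.7 FPKM in parental and 20.9, 27.7 and 25.8 FPKM in resistant libraries (log2 0.89, SE 0.16, limma adjusted p = 0.00496). HUWE1, a ubiquitin ligase of MCL1, fell by 0.29 (limma adjusted p = 0.0425), and this call was lost without any 1 library except parental library 0. FBXO4 had a log2 fold change of −0.51 (limma adjusted p = 0.0668). The other genes called higher, named after their values were seen, were BTRC, a ubiquitin ligase subunit, by 1.29 on the log2 scale, and USP9X, which removes ubiquitin from MCL1, by 0.41, so that both directions of turnover were represented. Without resistant library 1 or 2, the number called higher was 2.

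Markers of stromal, endothelial and immune cells were low in both groups. Their 12 genes summed to 7.90 to 10.7 FPKM in parental and 8.81 to 15.5 FPKM in resistant libraries, with 6 of 12 at 0 in all parental libraries and CD3E alone at 0 in all resistant libraries. Of 7 tested, 3 were called higher and 1 lower (42.9% and 14.3%, beside 22.1% and 22.3% of all genes tested). DCN, the gene of the matrix protein decorin, was listed at 0 in all parental libraries and at 3.63, 3.78 and 4.35 FPKM in resistant libraries. LUM, a related matrix gene, was at 0.0882, 0.0928 and 0 FPKM in parental and 1.12, 0.609 and 1.18 FPKM in resistant libraries. VWF of endothelial cells fell by 1.52 on the log2 scale (limma adjusted p = 0.0491), a call lost without any 1 library except resistant library 1. COL1A1, a collagen gene of fibroblasts, had a log2 fold change of −0.66 (limma adjusted p = 0.192), and without resistant library 2 it was −1.03 with an adjusted p of 0.0428. The part of these genes in the differences of the BCL2 family was not tested.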

How the data were processed

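RNA-Seq of 3 parental and 3 enzalutamide resistant C4-2B libraries was analysed. By the paper's methods, the authors used TrimGalore 0.4.3 for trimming and STAR 2.5.3 for alignment (GRCh38, GENCODE v25), and Cufflinks 2.2.1 for differential expression. The submitters' processing notes name mm10 and Trimmomatic 0.27 instead, while the gene identifiers are human. The deposited table names no unit, and its values were taken as FPKM made by the authors with Cufflinks, which the methods do not state. It holds no counts, so the precision of a single value is not known beyond the estimated depth, and a value of 0 is given as listed at 0.

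log2 of FPKM plus 0.1 was compared with limma 3.58.1 (R 4.3.3, moderated test with a mean-variance trend) over the 24468 genes whose mean reached 0.1 FPKM, two-sided, with Benjamini-Hochberg adjustment over all of them and a threshold of 0.05. Samples were grouped by their labels. Coordinates and exon overlaps are from GENCODE v44, and promoters from RefSeq. Python 3.11.15 (pandas 2.3.3, scipy 1.17.1, numpy 2.4.6) gave sums, ratios and promoter counts, and matplotlib 3.10.9 the figures. Named were all members and other BCL2 family genes and, of each further list, 2 genes per direction by smallest adjusted p, called or not. Results that need certain genes are not reported here. The members and lists were chosen with earlier results of these data known. The 15 alternatives covered pseudocount, filter, scaling, variance trend, a replicate block and each library left out.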

Additional observations from a re-analysis of the deposited data

How the results depend on the processing

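Over 15 alternatives the 10 members gave 150 values, of which 146 kept their direction and their side of the threshold, and the calls of BCL2, BCL2L1, MCL1, BAK1, BID, BIK and BCL2L11 held in every one of them, BCL2L11 with adjusted p up to 0.0491. With each library left out, the log2 fold change ranged from −0.01 to 3.01 for BBC3, from −0.28 to 0.00 for PMAIP1 and from 0.15 to 0.43 for BAX. Of the 565 values of the other named genes, 508 kept direction and call, 48 lost the call, 7 gained one and 2 changed sign. Both sign changes were of FAS, whose values without 1 library lay between −0.07 and 0.32. The parental pro-survival sum was 95.7 FPKM after rescaling without the 3 genes that take over 1% of the total. With a pseudocount of 1 FPKM the log2 fold changes of HRK, BCL2L14, BIRC3 and TNFRSF10C shrank to 0.84, −1.24, −0.81 and −1.80. With 0.01 FPKM that of HRK grew to 3.32 but lost its call (limma adjusted p 0.0555), and BAD lost its call with median centring (0.25, adjusted p 0.128), without the filter (0.0529) and without the trend (0.123). The number of genes called was 9303 to 10190 with a library left out, against 10868. Median centring, quantile normalization and rescaling put the median of all genes at −0.11, −0.07 and 0.01.

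Replicate numbers are shared between the groups, and no label says whether they pair the libraries. The deviations of same-numbered libraries had correlations of 0.00802, 0.0165 and −0.00301 across genes. Such values over all genes cannot show how the libraries were made. With a replicate block, 9463 genes were called, 4670 higher and 4793 lower, and no member changed its call. The limma adjusted p went down for BID (0.00151) and BCL2L11 (0.00835) and up for the other members called. Under this block BAD, RIPK1, HUWE1 and VWF were no longer past the threshold (limma adjusted p 0.0601, 0.0541, 0.0548 and 0.114) and BNIP3L was (0.0413). The cause of the changes listed here was not tested. No read counts are given, so the number of reads behind changes in genes under 1 FPKM is not known. By the estimated depth it is small for the lowest values.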
